A study of Mus musculus with 4 samples.

Results

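The 9 chemokine receptor genes that steer T cells between lymph nodes and tissue, Ccr2, Ccr4, Ccr7, Ccr8, Cxcr3, Cxcr4, Cxcr5, Cxcr6 and Cx3cr1, were examined in RNA sequencing of CD8+ T cells from mouse lung. They were taken by symbol from tables of 55401 genes, and each symbol matched 1 row. The cells were sorted as CD3+CD8+ from C57BL/6J mice of 2 models, named IPF-LC and LC in the labels, which do not expand the names. Mice had received an antibody that depletes CD4+ cells or an isotype control antibody, which gave 4 groups: CD4-depleted IPF-LC, isotype IPF-LC, CD4-depleted LC and isotype LC. Each group held 1 library, and neither the number of mice behind a library nor their age is stated. No value therefore has a replicate error, and differences between animals are not covered by any interval given here. The series title places the work in lung fibrosis and antitumor responses.

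Chemokine receptors are G protein-coupled receptors on the cell surface that make a cell move up a gradient of their ligand. In T cells the set of receptors changes with the state of the cell: naive and central memory cells carry receptors for lymph node chemokines, while activated and tissue-resident cells carry receptors for chemokines made in inflamed tissue. Regulatory and type 2 helper T cells, and monocytes, carry some of the same receptors, so a transcript in a sorted population does not by itself name the cell that made it.

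Library totals lay between 14946569 and 16217672 counts. The 14 CD8 T cell identity genes, among them Cd3e, Cd8a and Cd8b1, were detected in all 4 libraries, and none of them was 2-fold apart between the CD4-depleted and isotype library of either model. Other cell types were present as well. The 20 macrophage and monocyte markers, which include Ly6c2, a gene that memory CD8 T cells also express, summed to 1443 CPM (counts-per-million, scaled by TMM) in CD4-depleted IPF-LC cells and 4005 in isotype IPF-LC cells, against 417 in CD4-depleted LC cells and 4179 in isotype LC cells. Of these markers 3, 1, 8 and 0 were at 0 counts in that order, while 15183, 15321, 14657 and 16415 of all 55401 genes had a count. The 11 regulatory T cell markers summed to 776 CPM in CD4-depleted IPF-LC cells and 324 in isotype IPF-LC cells, and to 754 in CD4-depleted LC cells and 525 in isotype LC cells. In such bulk samples, fewer cells of a type and less RNA per cell cannot be told apart.

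Transcripts of the lymph node homing receptor Ccr7 outnumbered those of the other 8 receptors in each library. Levels between genes are compared here in TPM (transcripts-per-million), which allows for gene length. Ccr7, the receptor for CCL19 and CCL21 that brings naive and central memory T cells into lymph nodes, was measured at 1536 TPM in CD4-depleted IPF-LC cells, 1883 in isotype IPF-LC cells, 1579 in CD4-depleted LC cells and 1673 in isotype LC cells. It made up between 78.3 and 90.9% of the summed TPM of the 9 receptors, and its highest library was 1.19 times its lowest in CPM. Next in every library came Cxcr6, the receptor for CXCL16 found on resident T cells of the lung, and then Cxcr3, the receptor of effector T cells for CXCL9 and CXCL10. At the low end stood Cx3cr1, the receptor for CX3CL1 on cytotoxic effector cells and monocytes, which was lowest in all libraries except isotype LC, where Ccr4 was lower. Without Ccr7 the receptors summed to 426 TPM in CD4-depleted IPF-LC cells, 189 in isotype IPF-LC cells, 392 in CD4-depleted LC cells and 331 in isotype LC cells, so that the sum was lowest in isotype IPF-LC cells.

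**Figure D1:**
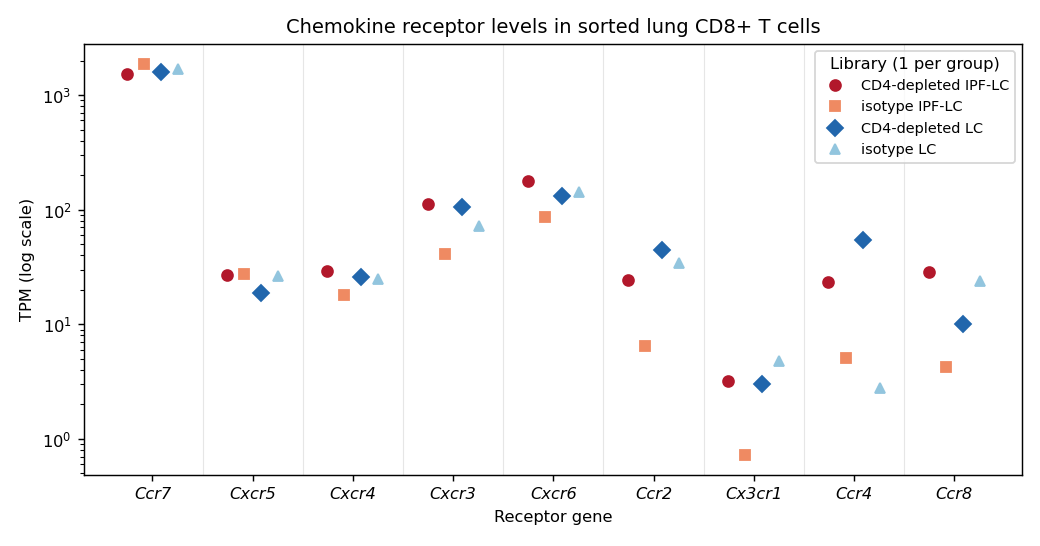
Level of each of the 9 receptor genes in TPM (vertical axis, log scale), with 1 point for each library and no error bars because each group had 1 library. Ccr7 lies between 1536 and 1883 TPM in all libraries, whereas the points of Ccr4 spread most, with 54.7 TPM in CD4-depleted LC and 2.76 TPM in isotype LC.

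The first comparison was of CD4 depletion in IPF-LC mice. Among the 8 receptors averaging 10 CPM or more, 5 were at least 2-fold higher (Ccr2, Ccr4, Ccr8, Cxcr3 and Cxcr6), against 4.08% of the 8433 genes with such a mean, and 0 were at least 2-fold lower, against 6.02% of genes. Their median log2 ratio was 1.31, against 0.00 for all genes. Ratios are of TMM-scaled CPM, CD4-depleted over isotype, and their 95% intervals cover counting error only, since reads without molecular identifiers are not independent molecules. Cx3cr1 was left out of these counts because its mean was 7.15 CPM. Ccr4, at 9.66 CPM in isotype IPF-LC and 3.75 CPM in isotype LC cells, reached 10 CPM only through the CD4-depleted libraries. Ccr8, at 2.82 CPM in isotype IPF-LC and 6.70 CPM in CD4-depleted LC cells, reached it only through the libraries where it was high. Their calls are therefore not independent of the filter.

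Cxcr3 was measured at 126 CPM in CD4-depleted IPF-LC cells and 44.8 CPM in isotype IPF-LC cells, giving a log2 ratio of 1.49 (95% counting interval 1.36 to 1.61). Cxcr6 stood at 227 CPM after depletion and 104 CPM with isotype antibody, giving a log2 ratio of 1.13 (1.04 to 1.21). Ccr2, the receptor for CCL2 on monocytes and effector memory T cells, had 60.2 CPM after depletion and 15.5 CPM with isotype antibody, 3.88-fold higher (log2 ratio 1.96, 1.75 to 2.17). Each of these receptors was lowest of the 4 libraries in isotype IPF-LC cells. Cx3cr1 showed the same order within this model at low counts, with 134 counts after depletion and 35 with isotype antibody (log2 ratio 1.93, 1.39 to 2.52).

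Ccr4 and Ccr8, receptors that regulatory T cells and type 2 helper cells carry, were also higher. Ccr4, which binds CCL17 and CCL22, was measured at 40.0 CPM in CD4-depleted IPF-LC cells and 9.66 CPM in isotype IPF-LC cells, giving a log2 ratio of 2.05 (1.79 to 2.32). Ccr8, which binds CCL1, stood at 19.8 CPM after depletion and 2.82 CPM with isotype antibody, 6.97-fold higher (log2 ratio 2.80, 2.36 to 3.31), the largest ratio among the 9 receptors in this comparison. Regulatory T cell markers also summed to more in the same library, as given above. Of the 9 that averaged 10 CPM or more, 6 were at least 2-fold higher and 0 lower, against 4.08% and 6.02% of genes. Foxp3, the defining transcription factor gene of regulatory T cells, stood at 29.3 CPM after depletion and 1.47 CPM with isotype antibody. Foxp3 and Ikzf4, both among the 6, were under 10 CPM in the isotype libraries of both models and reached that mean only through CD4-depleted libraries. Of the CD4 T helper markers, Cd4 had 0 counts after depletion and 73 with isotype antibody, and Zbtb7b 3 and 28. Cd40lg had 83 and 37 counts in that order and Icos 5186 and 3996, and the interleukin genes of that list had 0 in both. Whether regulatory T cells made the Ccr4 and Ccr8 transcripts was not tested.

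Ccr7, Cxcr5 and Cxcr4 stayed within 2-fold. Ccr7 had 2038 CPM in CD4-depleted IPF-LC cells and 2406 CPM in isotype IPF-LC cells, giving a log2 ratio of -0.24 (-0.26 to -0.22). Cxcr5, the receptor for CXCL13 that leads lymphocytes to B cell follicles, had 43.1 CPM after depletion and 41.3 CPM with isotype antibody (0.06, -0.10 to 0.22), a difference not detectable at this depth and below 0 under another scaling. Cxcr4, the receptor for CXCL12 that retains cells in bone marrow and tissue niches, was 1.63-fold higher, at 32.7 CPM after depletion and 20.1 CPM with isotype antibody (0.70, 0.50 to 0.91).

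The same comparison in LC mice gave another picture. Ccr4 was the only one of the 8 receptors at least 2-fold higher, against 2.59% of genes, and Ccr8 the only one at least 2-fold lower, against 5.85% of genes. Their median log2 ratio was 0.09, against 0.06 for all genes. Ccr4 was measured at 96.3 CPM in CD4-depleted LC cells, from 1510 counts, and at 3.75 CPM in isotype LC cells, from 58 counts. This is 25.5-fold higher after depletion (log2 ratio 4.67, 4.30 to 5.09). Computed from TPM the ratio was 19.8, since the authors' estimate of the mean transcript length of Ccr4 differed between libraries.

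Ccr8 was lower after depletion in LC, at 6.70 CPM in CD4-depleted LC cells and 15.1 CPM in isotype LC cells, giving a log2 ratio of -1.17 (-1.52 to -0.83), so that its counting interval reached to less than 2-fold. Cx3cr1 had 104 counts after depletion and 172 with isotype antibody, giving a log2 ratio of -0.74 (-1.11 to -0.39). Both ratios had the opposite sign to those in IPF-LC. In LC, depletion left 2 of the 9 regulatory T cell markers averaging 10 CPM or more at least 2-fold higher and 0 lower. The shares of all genes were 2.59% and 5.85%. Foxp3 was higher after depletion in LC, at 32.5 CPM against 3.88 CPM with isotype antibody, so that Ccr8 and Foxp3 had ratios of opposite sign in this model and of the same sign in IPF-LC. Lrrc32, a marker of the same list under that mean, had the signs of Ccr8, with log2 ratios of 3.65 in IPF-LC and -1.74 in LC. The other markers of the list had ratios above 0 in LC. Of the CD4 T helper markers, Cd4 had 16 counts in CD4-depleted LC cells and 12 in isotype LC cells, and Zbtb7b 27 and 24. Cd40lg had 195 and 44 counts in that order (log2 ratio 2.11, 1.65 to 2.63) and Icos 6704 and 4532. Il5 had 0 and 13 counts, and the other interleukin genes of that list had 0 in both.

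The other 6 receptors averaging 10 CPM or more differed by less than 2-fold in LC. Cxcr3 had 115 CPM in CD4-depleted LC cells and 74.2 CPM in isotype LC cells (0.63, 0.53 to 0.74), and Ccr2 had 102 CPM and 76.3 CPM in that order (0.42, 0.31 to 0.53). Cxcr6 had 159 CPM after depletion and 164 CPM with isotype antibody (-0.05, -0.13 to 0.04), and Cxcr4 had 28.7 CPM and 25.2 CPM in that order (0.19, -0.01 to 0.39), neither of which was a detectable difference at this depth. Cxcr5 was 1.33-fold lower after depletion, at 28.3 CPM against 37.6 CPM with isotype antibody (-0.41, -0.59 to -0.23). Ccr7 stood at 2023 CPM after depletion and 2026 CPM with isotype antibody (0.00, -0.02 to 0.02), the smallest difference of any receptor in either model.

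**Figure D2:**
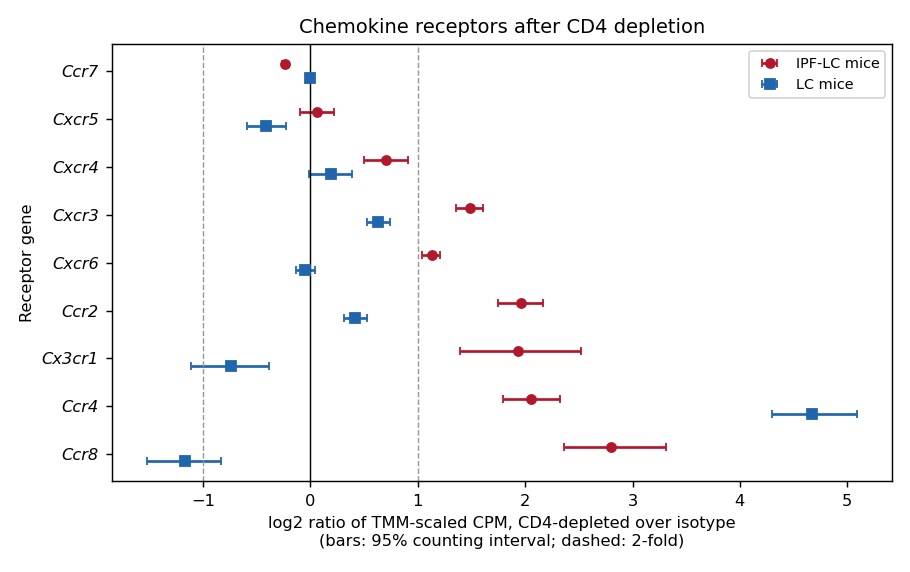
Log2 ratio of TMM-scaled CPM, CD4-depleted over isotype, for each receptor (circles, IPF-LC mice; squares, LC mice), with bars for the 95% counting interval and dashed lines at 2-fold. Ccr4 lies right of the 2-fold line in both models, at 2.05 and 4.67, and Ccr8 lies at 2.80 in IPF-LC and at -1.17 in LC.

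The depletion comparisons of the models share no library. Ccr4 was the only receptor at least 2-fold higher in both, a pattern held by 0.605% of the 8433 genes. For 4 of the 8 receptors the depletion ratios differed by at least 2-fold between models, against 14.4% of genes. The IPF-LC ratio was the larger for Ccr8, by 3.97 on the log2 scale (counting SE 0.29), for Ccr2, by 1.54 (0.12), and for Cxcr6, by 1.17 (0.06), and the smaller for Ccr4, with a difference of -2.62 (0.23). With 1 library per group these differences could not be tested against the spread between animals.

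**Figure D3:**
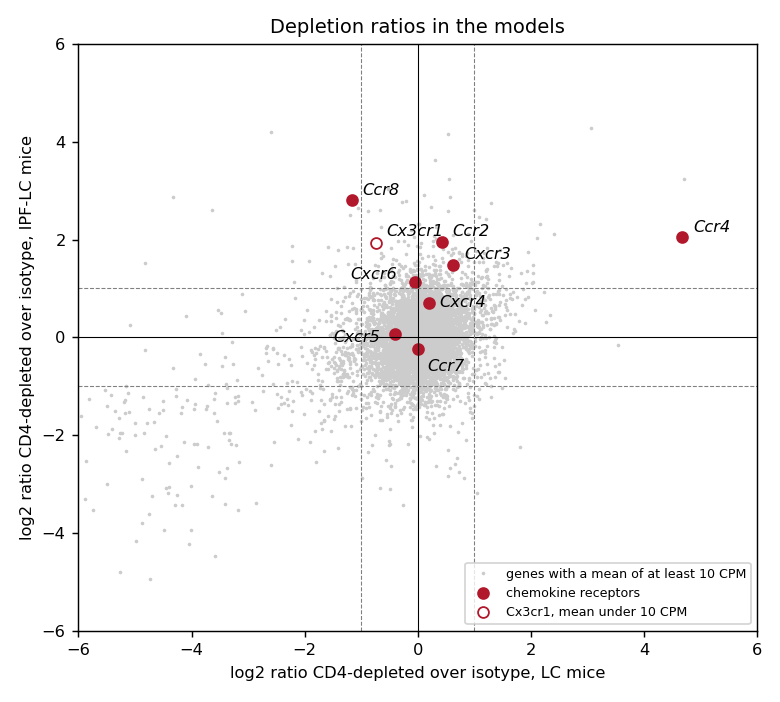
Log2 ratio CD4-depleted over isotype in LC mice (horizontal) and in IPF-LC mice (vertical) for the genes averaging 10 CPM or more (grey) and the receptors (red; Cx3cr1, under that mean, open), with dashed lines at 2-fold and 78 genes outside the drawn range. Ccr4 lies in the upper right at 4.67 and 2.05, Ccr8 in the upper left at -1.17 and 2.80, and Ccr7 near the origin.

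The 4 libraries were also fitted together in edgeR with additive terms for antibody and mouse model, which leaves 1 residual degree of freedom. At a Benjamini-Hochberg adjusted p under 0.05 it called 0 of 13050 genes, or 0.00%, higher or lower with depletion, while 409 genes were higher and 896 lower at an unadjusted p under 0.05. Ccr4 had a log2 change with depletion of 3.31 (SE 0.71, adjusted p = 0.296 by edgeR's quasi-likelihood test). Cxcr3 had one of 1.04 (SE 0.27, adjusted p = 0.363) and Ccr2 one of 1.15 (SE 0.42, adjusted p = 0.467), all 3 with a ratio above 0 in both models and none past the threshold. DESeq2, which called 100 genes higher (0.766%) and 381 lower (2.92%), gave adjusted p = 4.30e-06 for Ccr4, 0.0484 for Cxcr3 and 0.125 for Ccr2. For the IPF-LC over LC term edgeR called 0 genes (93 higher and 173 lower at an unadjusted p under 0.05) and DESeq2 0 higher and 5 lower (0.0383%), with none of the 9 receptors among them. With depletion, limma-voom called 0 genes, with an adjusted p of 0.0979 for Ccr4, and edgeR on the 8433 more abundant genes called 39 higher (0.462%) and 95 lower (1.13%), among the higher ones Ccr4 (adjusted p = 0.0226). The residual is the interaction of model and antibody, and the call for Ccr4 depended on the tool and the filter. The SEs given for edgeR were derived from the log2 change and the F statistic of its test, so they are no separate measure of spread.

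The upstream sequence of 3 receptors is shown here because their ratios were the largest or turned direction between models: Ccr4, and the pair Ccr8 and Cx3cr1, which are neighbours on chromosome 9 in RefSeq's gene order. Each run holds 250 bases before and 50 after the transcript start, from RefSeq on build GRCm38.p6, which is older than the build of the expression tables. They lie at chr9:114496495-114496794 on the minus strand (Ccr4), chr9:120091883-120092182 on the plus strand (Ccr8) and chr9:120068247-120068546 on the minus strand (Cx3cr1), and are printed 5′ to 3′ on the gene's strand. Capitals mark exact matches, on either strand, to 6 motifs searched: TGANTCA for AP-1, AGATAA for factors of the GATA family, TGTGGT for RUNX, TGGAAA for NFAT, AGGAAG for ETS and TTCNNNGAA for STAT.
Ccr4: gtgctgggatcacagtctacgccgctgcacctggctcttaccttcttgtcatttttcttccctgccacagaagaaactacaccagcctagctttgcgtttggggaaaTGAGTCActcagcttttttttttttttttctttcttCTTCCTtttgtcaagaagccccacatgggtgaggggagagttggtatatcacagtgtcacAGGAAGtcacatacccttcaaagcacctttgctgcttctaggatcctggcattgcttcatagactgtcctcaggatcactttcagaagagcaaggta
Ccr8: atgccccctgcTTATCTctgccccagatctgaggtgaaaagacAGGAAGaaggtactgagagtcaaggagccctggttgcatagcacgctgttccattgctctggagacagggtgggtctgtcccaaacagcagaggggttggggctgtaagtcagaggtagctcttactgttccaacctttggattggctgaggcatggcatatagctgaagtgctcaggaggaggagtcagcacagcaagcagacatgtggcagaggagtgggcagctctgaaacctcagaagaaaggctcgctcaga
Cx3cr1: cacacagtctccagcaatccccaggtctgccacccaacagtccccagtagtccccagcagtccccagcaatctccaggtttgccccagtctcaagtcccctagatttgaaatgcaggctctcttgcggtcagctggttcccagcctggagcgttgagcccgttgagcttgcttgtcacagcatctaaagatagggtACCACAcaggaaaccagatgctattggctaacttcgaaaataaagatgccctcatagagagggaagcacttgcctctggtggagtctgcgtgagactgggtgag

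Promoters of 7 of the 9 receptors were in the table and were searched. Counted from the first printed base, the Ccr4 run holds an AP-1 match at bases 108 to 114, a motif that 7.81% of all 32851 promoters hold, and ETS matches at 144 to 149 and 204 to 209. The Ccr8 run holds a GATA match at 12 to 17, found in 11.2% of promoters, and an ETS match at 44 to 49, found in 35.4%. The Cx3cr1 run holds a RUNX match at 197 to 202, found in 16.8% of promoters, as did those of Cxcr6 and Cxcr3. NFAT matches, held by 21.4% of promoters, occurred in those of Cxcr6 and Ccr2, and a STAT match, held by 8.30%, in none of the 7. None of the matches in the printed runs overlaps another. These are matches of letters, and binding was not measured.

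The genes beside the Ccr8 and Cx3cr1 pair were looked up as well. On chromosome 9, where 6 of the 9 receptors lie, Csrnp1 and Xirp1 precede the pair in gene order and Slc25a38 and Rpsa follow it. Slc25a38, a mitochondrial carrier gene, had 26.2 CPM in CD4-depleted IPF-LC cells and 17.5 CPM in isotype IPF-LC cells (log2 ratio 0.58, 0.36 to 0.81), and 27.2 CPM in CD4-depleted LC cells and 29.1 CPM in isotype LC cells (-0.10, -0.29 to 0.09). Csrnp1 had log2 ratios of 0.64 in IPF-LC and -0.05 in LC, and Rpsa, a ribosomal protein gene, 0.03 and 0.32. Xirp1 had 5 counts in CD4-depleted LC cells and 0 in the other 3 libraries, too few for a ratio.

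The models were then compared with CD4+ cells depleted and with isotype antibody. After depletion, 1 of the 8 receptors, Ccr8, was at least 2-fold higher in IPF-LC than in LC, against 3.30% of genes, and 1, Ccr4, at least 2-fold lower, against 2.57%. With isotype antibody, 1 receptor, Ccr4, was at least 2-fold higher in IPF-LC, against 1.91% of genes, and 2, Ccr2 and Ccr8, at least 2-fold lower, against 4.10%. These comparisons use the same 4 libraries as the depletion comparisons and are not independent of them.

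With isotype antibody, Ccr2 stood at 15.5 CPM in the IPF-LC library and 76.3 CPM in the LC library, giving a log2 ratio of -2.30 (-2.51 to -2.10). Ccr8 had 2.82 CPM in IPF-LC and 15.1 CPM in LC (-2.41, -2.92 to -1.95), and Cx3cr1, with 35 counts in IPF-LC and 172 in LC, had a ratio of -2.30 (-2.88 to -1.78). Cxcr3 (-0.73, -0.87 to -0.59) and Cxcr6 (-0.66, -0.75 to -0.57) were lower in IPF-LC by less than 2-fold. These 5 receptors are listed together because the isotype IPF-LC library was the lower one for them. Of the 9 regulatory T cell markers averaging 10 CPM or more, 5 were also at least 2-fold lower there and 0 higher, against 4.10% and 1.91% of genes. The part of regulatory T cells in the Ccr8 value was not tested. Ccr4 had 9.66 CPM in IPF-LC and 3.75 CPM in LC (1.36, 0.92 to 1.83), with a counting interval that reached below 2-fold and a TPM ratio of 1.83.

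The depleted libraries of the models were compared next. Ccr8 had 19.8 CPM in CD4-depleted IPF-LC cells and 6.70 CPM in CD4-depleted LC cells, giving a log2 ratio of 1.56 (1.24 to 1.90). Ccr4 had 40.0 CPM in IPF-LC and 96.3 CPM in LC (-1.27, -1.40 to -1.13), and Ccr2 had 60.2 CPM and 102 CPM in that order (-0.76, -0.88 to -0.64). Cxcr5 was 1.52-fold higher in IPF-LC (0.61, 0.43 to 0.78) and Cxcr6 1.43-fold (0.51, 0.44 to 0.59). Cxcr3 (0.12, 0.03 to 0.22), Cxcr4 (0.19, 0.00 to 0.37) and Cx3cr1 (0.37, -0.01 to 0.76) were closer. Ccr7 had a ratio of 0.01 after depletion and 0.25 with isotype antibody, both of which turned below 0 under another scaling, as did the isotype ratio of Cxcr5 (0.14).

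**Figure D4:**
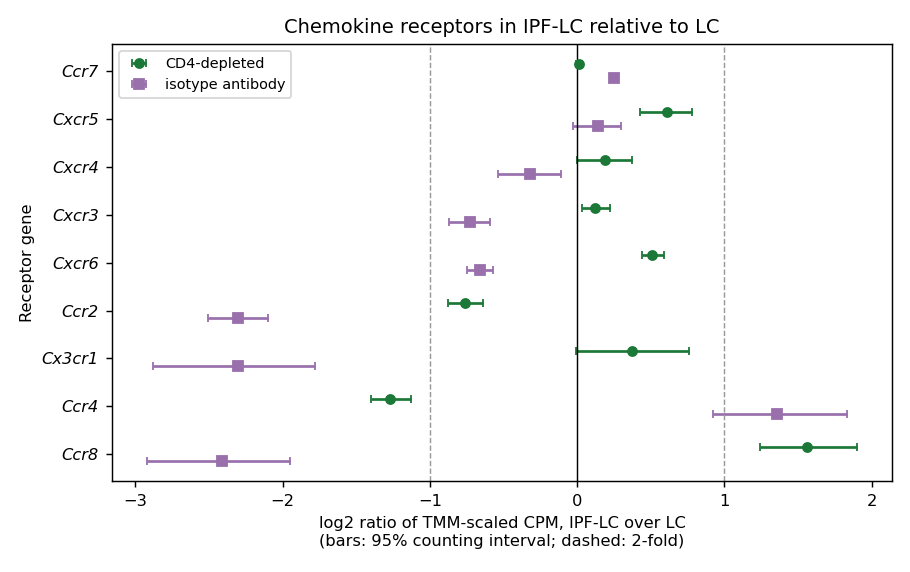
Log2 ratio of TMM-scaled CPM, IPF-LC over LC, for each receptor (circles, CD4-depleted; squares, isotype antibody), with bars for the 95% counting interval and dashed lines at 2-fold. With isotype antibody Ccr2, Ccr8 and Cx3cr1 lie between -2.41 and -2.30, and after depletion Ccr8 lies at 1.56 and Ccr4 at -1.27.

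The order of the libraries differed between receptors. From highest to lowest CPM, Ccr4 ran CD4-depleted LC, CD4-depleted IPF-LC, isotype IPF-LC and isotype LC, with neighbours apart beyond counting error at each step. For Ccr8 the order was CD4-depleted IPF-LC, isotype LC, CD4-depleted LC and isotype IPF-LC, and for Ccr2 CD4-depleted LC, isotype LC, CD4-depleted IPF-LC and isotype IPF-LC, again with each step beyond counting error. Isotype IPF-LC was the lowest library for 6 of the 9 receptors, namely Ccr2, Ccr8, Cxcr3, Cxcr4, Cxcr6 and Cx3cr1. The share of all genes lowest in that library was not counted, so this is not read as particular to the receptors. For Ccr7 the 3 lower libraries were not apart beyond counting error, and for Cxcr5 the 3 higher ones were not, neighbour by neighbour.

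Monocytes carry Ccr2 and Cx3cr1, so these receptors were set beside the macrophage and monocyte markers. In IPF-LC, Ccr2 and Cx3cr1 were higher in the CD4-depleted library, where the summed markers were lower (1443 CPM, against 4005 CPM with isotype antibody). Of the 15 markers averaging 10 CPM or more, 14 were at least 2-fold lower there, against 6.02% of all genes. In LC, Ccr2 stood at 102 CPM after depletion and 76.3 CPM with isotype antibody while the markers summed to 417 and 4179 CPM in that order, and Csf1r, the growth factor receptor of these cells, named after its values were seen, had 2 and 2286 counts. Ccr2 was higher where the summed markers were lower in both depletion comparisons, and which cells made the Ccr2 transcripts was not tested. Between isotype libraries, the markers summed to 4005 CPM in IPF-LC and 4179 CPM in LC. Of the 15, 7 were at least 2-fold lower in IPF-LC, against 4.10% of all genes, and Ccr2 and Cx3cr1 were 4.92-fold and 4.91-fold lower in IPF-LC. Cx3cr1 and the summed markers were both lower after depletion in LC. Natural killer cells carry Cx3cr1 and Cxcr3 too. Their 12 markers summed to 254 CPM in CD4-depleted and 322 CPM in isotype IPF-LC cells, and to 115 CPM in CD4-depleted and 503 CPM in isotype LC cells. The list includes Gzma, Klrk1 and Eomes, which effector CD8 T cells also express, at 69.9, 64.1 and 53.6 CPM in CD4-depleted IPF-LC cells. It also includes Tyrobp and Fcer1g, which myeloid cells share, at 84.2 and 112 CPM in isotype LC cells. Ncr1 had 0 and 9 counts in CD4-depleted and isotype IPF-LC cells, and 0 and 34 in CD4-depleted and isotype LC cells. The part of natural killer cells in the Cx3cr1 values was not tested.

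**Figure D5:**
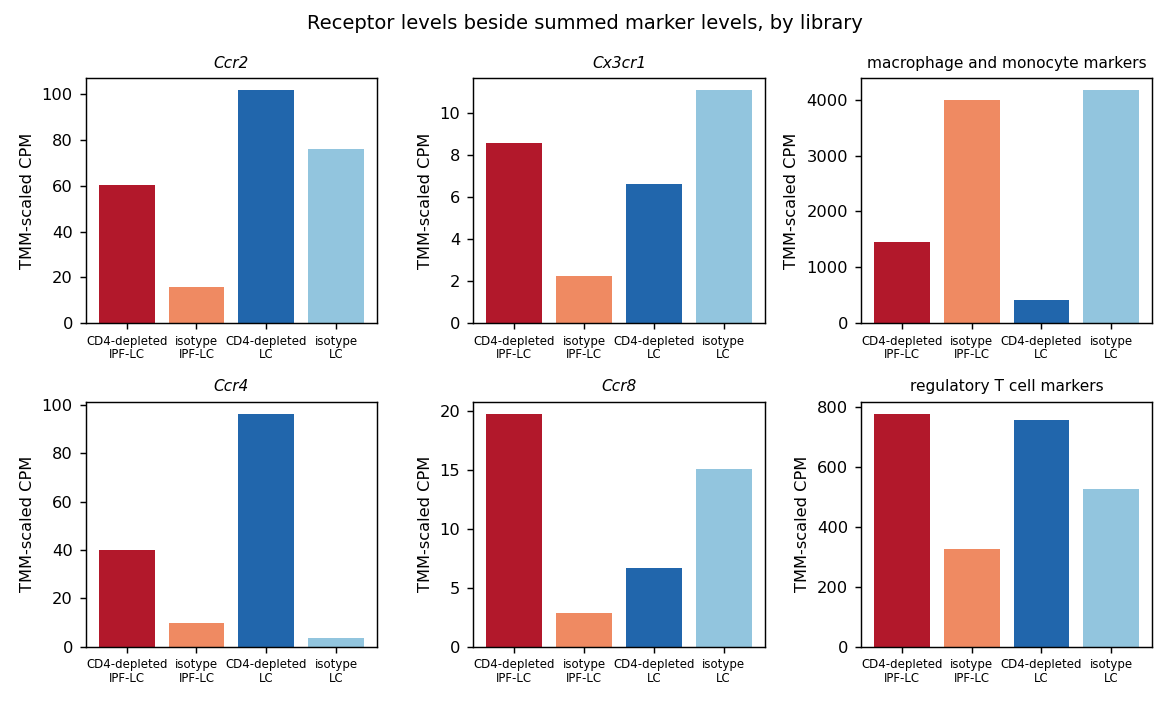
Level in TMM-scaled CPM (vertical axes, from 0) of Ccr2, Cx3cr1, Ccr4 and Ccr8 and of the summed macrophage and monocyte markers (20 genes) and regulatory T cell markers (11 genes), with 1 bar for each library and no error bars. The macrophage sum is 4005 and 4179 CPM in the isotype IPF-LC and LC libraries, in which Ccr2 is 15.5 and 76.3 CPM.

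Ligand transcripts of these receptors were fewer in the CD4-depleted library than in the isotype library of each model. They summed to 373 counts in CD4-depleted and 937 in isotype IPF-LC cells, and to 251 in CD4-depleted and 2158 in isotype LC cells. In isotype LC cells 12 of the 16 ligand genes had at least 10 counts, and Ccl2 stood at 111 TPM. Of 16 ligand genes, 9 were at 0 counts in CD4-depleted IPF-LC cells and 3 in isotype IPF-LC cells, and 13 in CD4-depleted LC cells and 1 in isotype LC cells. Of all 55401 genes, 15183, 15321, 14657 and 16415 had a count in that order, so the CD4-depleted library of each model held fewer detected genes as a whole. Cxcl10, a ligand of CXCR3 that T cells and many other cells make in response to interferon, had the most counts of these genes in both CD4-depleted libraries, with 15.2 CPM in CD4-depleted IPF-LC cells and 16.5 CPM in isotype IPF-LC cells, and 14.9 CPM in CD4-depleted LC cells and 24.8 CPM in isotype LC cells. Cxcl12, the CXCR4 ligand of stromal cells, had 0 counts after depletion in both models and 194 and 169 counts with isotype antibody in IPF-LC and LC, at least 64.5-fold and 57.1-fold lower by a floor of 3 counts per library. Ccl2, the CCR2 ligand, had 19 counts after depletion and 111 with isotype antibody in IPF-LC, and 0 and 634 in LC, at least 214-fold lower. Fibroblast markers moved alongside, at 50.6 CPM after depletion and 215 CPM with isotype antibody in IPF-LC and at 13.3 and 328 CPM in LC, and their part in these values was not tested.

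Of the 21 measured genes of receptor signalling and desensitisation, 3 were at least 2-fold higher and 1 lower in CD4-depleted IPF-LC cells (median 0.10), against 4.08% and 6.02% of all genes. In CD4-depleted LC cells 0 were higher and 1 lower (median 0.16), against 2.59% and 5.85%. Rgs16, a regulator of G protein signalling that dampens chemokine receptors, was measured at 154 CPM in CD4-depleted IPF-LC cells and 24.6 CPM in isotype IPF-LC cells (log2 ratio 2.65, 2.49 to 2.81), but at 71.6 CPM in CD4-depleted LC cells and 148 CPM in isotype LC cells (-1.05, -1.15 to -0.94). Rgs1, of the same family, had ratios of 1.87 in IPF-LC and 0.27 in LC, and Gna13, a G protein alpha subunit, 1.07 and 0.47. Rgs14 had a ratio of -1.09 in IPF-LC. Rgs16 and Ccr8 had ratios of the same sign in each depletion comparison.

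Among 10 measured genes of egress and lymph node homing, 0 were at least 2-fold higher and 1 lower in CD4-depleted IPF-LC cells (median 0.05), against 4.08% and 6.02% of all genes. In CD4-depleted LC cells 1 was higher and 0 lower (median 0.50), against 2.59% and 5.85%. Satb1, a chromatin organiser of T cells, had ratios of 0.83 in IPF-LC and 1.11 in LC, and Foxo1, which drives Ccr7 and Klf2, 0.97 and 0.91. Klf2, which promotes exit from tissue, had 0.57 and 0.98, and Klf3 -1.05 and -0.04. Of 11 measured integrins and selectin ligand genes, 0 were at least 2-fold higher and 1, Itga1, lower in IPF-LC, against the same 4.08% and 6.02%. In LC 1 was higher and 2 lower, against the same 2.59% and 5.85%. Itgae, the CD103 chain, was the higher one in LC (1.19), against -0.31 in IPF-LC, while Itga1, the CD49a chain of resident T cells, had -1.42 in IPF-LC and -4.16 in LC.

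Of 18 measured transcription factors tied to these receptors, 7 were at least 2-fold higher and 0 lower in CD4-depleted IPF-LC cells (median 0.88), against 4.08% and 6.02% of all genes. In CD4-depleted LC cells 2 were higher and 1 lower (median -0.07), against 2.59% and 5.85%. As given above, Foxp3 and Ikzf4 reached the mean for being measured only through CD4-depleted libraries. Foxp3 had log2 ratios of 4.28 and 3.06 in IPF-LC and LC, Maf 2.61 and 0.99, Ikzf4 2.32 and 0.02, and Zeb2, a factor of terminal effector and myeloid cells, 0.56 and -3.53. Tbx21, which encodes T-bet, a direct activator of Cxcr3 and named here after its values were seen, had 0.91 and -0.86, the second opposite in sign to the Cxcr3 ratio of 0.63.

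Genes with the most similar pattern were sought among 8199 others by the distance between log2(TPM + 1) profiles over the 4 libraries. For Ccr4 these were Il17f, at a distance of 0.94, Foxp3 (1.22) and Hey1 (1.26). For Ccr8 they were Gzmk (0.26), Il12rb2 (0.26) and Rgs16 (0.37), for Ccr2 Brca1 (0.27), Prim2 (0.29) and Ttc39c (0.63), and for Cxcr3 Zfand2a, Kdm6a and Lmnb1, at 0.15 to 0.19. The nearest profiles to Ccr4 were thus farther from it than those of the other 7 receptors searched, which leave out Cx3cr1, were from theirs, and 4 libraries are too few to read more from such distances.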

How the data were processed

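RNA was sequenced from 4 libraries of sorted lung CD8+ T cells, with SMART-Seq v4 cDNA and NEBNext Ultra II library preparation, per the labels' protocols. Per the submitters' processing notes the tools were RSEM 1.3.3, STAR 2.7.11a, fastp 0.23.4 and, for reports, MultiQC 1.25.2, and the build GRCm39 (mm39). The annotation release is not given in the sources used here. The deposited tables give RSEM expected counts, estimates of the reads from each gene with no normalisation. They were rounded to whole numbers, although those of all 9 receptors were whole within 0.005 in every library, and 5.49 to 5.89% of all values were not. The deposited TPM values are scaled by gene length and library. The deposited FPKM values were not used. Per the file headers, the tables also hold gene lengths.

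Counts were scaled by TMM (edgeR 4.0.16, R 4.3.3), with factors between 0.961 and 1.03. Log2 ratios used a prior count of 0.5 and exact conditional binomial 95% intervals (scipy 1.17.1). Because each group held 1 library, a call means at least 2-fold apart with a mean of at least 10 CPM. The additive edgeR quasi-likelihood model (filterByExpr, 1 residual degree of freedom, common dispersion 0.228) was tested on simulated data, where it recovered few changes at a dispersion near the fitted one; DESeq2 1.42.0 and limma 3.58.1 (voom) were alternatives in the same design. The receptors and gene lists were chosen with earlier results of these data known. Of each other list, up to 4 genes with the largest log2 ratio of either sign in a depletion comparison were named. Promoter sequences are RefSeq's.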

Additional observations from a re-analysis of the deposited data

Results flagged for a closer look

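The depletion ratios of Ccr8 and Cx3cr1 lay on opposite sides of 0 in the models, each with a counting interval away from 0. The ratio in IPF-LC minus that in LC was 3.97 on the log2 scale for Ccr8 and 2.67 for Cx3cr1, with counting SEs of 0.29 and 0.33. The difference was not tested, since each group held 1 library. Cx3cr1 rests on 134, 35, 104 and 172 counts in CD4-depleted IPF-LC, isotype IPF-LC, CD4-depleted LC and isotype LC.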

How the results depend on the processing

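Counts are given as higher and lower for depletion in IPF-LC, depletion in LC, IPF-LC over LC after depletion and IPF-LC over LC with isotype antibody, in that order. As reported, receptor counts were 5 and 0, 1 and 1, 1 and 1, and 1 and 2, among 344 and 508, 218 and 493, 278 and 217, and 161 and 346 genes. Under 5 other scalings the receptor counts were the same, except that with TPM 0 receptors were higher with isotype antibody. Scaling to the T cell identity list moved the median of all genes by 0.19, -0.17, 0.09 and -0.27 and gave 584 and 365, 140 and 618, 343 and 162, and 49 and 580 genes, so that 61.5, 18.5, 67.9 and 7.79% of calls were higher, against 40.4, 30.7, 56.2 and 31.8%. A mean of at least 1 CPM gave 1081 and 1665, 715 and 1889, 1173 and 931, and 651 and 1427 genes. Cx3cr1 then joined the receptors counted as higher with depletion in IPF-LC (log2 ratio 1.93). It also joined those lower in IPF-LC with isotype antibody (-2.30), where 3 receptors were lower. A mean of at least 50 CPM gave 118 and 66, 67 and 70, 32 and 11, and 27 and 48 genes, and 3 and 0, 0 and 0, 0 and 0, and 0 and 1 receptors. A threshold of 1.5-fold gave 1097 and 1262, 783 and 929, 771 and 725, and 712 and 856 genes, and 6 and 0, 2 and 1, 2 and 2, and 1 and 4 receptors. Requiring the whole counting interval beyond 2-fold gave 207 and 325, 133 and 407, 176 and 102, and 59 and 237 genes, and 5 and 0, 1 and 0, 1 and 1, and 0 and 2 receptors.

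Against 0 and 0 genes in the additive edgeR model, the filter at a mean of 10 CPM gave 39 higher and 95 lower with depletion, and DESeq2 gave 100 and 381, with 5 lower for the model term. The IPF-LC over LC term of Ccr4 was -0.05 in edgeR, 0.002 in DESeq2 and -0.92 in limma-voom, and the cause of the difference between tools was not tested. This term covers both antibodies, for which the separate log2 ratios of Ccr4 were 1.36 with isotype antibody and -1.27 after depletion. Cxcr5 with depletion in IPF-LC ran between -0.04 and 0.25 over the scalings. No paired analysis was possible because each group held 1 library and the labels give no replicate numbers; for the same reason no library could be left out of the additive model, which would then have no residual degree of freedom. Depth limits Cx3cr1, Ccr8 and Ccr4 most, each with under 60 counts in at least 1 library.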

Other observations

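Other chemokine receptors, most of them under 10 CPM, were examined as values only. Of 17 such genes 5 had a mean of at least 10 CPM, of which 0 were at least 2-fold higher and 3 lower with CD4 depletion in each model. The shares of all genes were 4.08% higher and 6.02% lower in IPF-LC, and 2.59% and 5.85% in LC. Ccr6, the CCL20 receptor of type 17 and regulatory T cells, had 100 counts in CD4-depleted IPF-LC cells and 9 in isotype IPF-LC cells, and 129 in CD4-depleted LC cells and 5 in isotype LC cells, with log2 ratios of 3.41 and 4.54. Like Ccr4 it was higher after depletion in both models. Ccr10, the receptor for the skin chemokine CCL27 and for CCL28, had 19 counts after depletion and 10 with isotype antibody in IPF-LC, and 204 and 3 in LC (log2 ratio 5.85, 95% counting interval 4.50 to 8.36). Xcr1, a receptor best known from cross-presenting dendritic cells, had 99 counts after depletion and 12 with isotype antibody in IPF-LC (3.00), and 20 and 28 in LC (-0.50).

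Ratios below 0 in both models were found for Ccr1, Ccr9, Ccrl2, Ackr2 and Ackr3. Ccr1, a receptor for CCL3 and CCL5 on monocytes and neutrophils, had 50 counts after depletion and 341 with isotype antibody in IPF-LC (-2.75), and 78 and 879 in LC (-3.51). Ackr2, a scavenging receptor of lymphatic endothelium, had 0 counts after depletion and 58 with isotype antibody in IPF-LC, and 0 and 61 in LC, at least 19.3-fold and 20.6-fold lower by a floor of 3 counts per library. Ccr9, the gut homing receptor for CCL25, had 478 counts after depletion and 1072 with isotype antibody in IPF-LC (-1.16), and 482 and 581 in LC (-0.29). Ccrl2, a receptor that binds chemerin, had 332 counts after depletion and 716 with isotype antibody in IPF-LC (-1.10), and 128 and 843 in LC (-2.74). Ackr3, a scavenging receptor for CXCL12, had 10 counts after depletion and 55 with isotype antibody in IPF-LC (-2.40), and 6 and 73 in LC (-3.52).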
